A study of Rattus norvegicus with 4 samples.

Results

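The genes of sarcoplasmic reticulum calcium handling are described here in neonatal rat cardiomyocytes that overexpressed atrogin-1. They are 10 genes chosen by name for their known roles, Atp2a2, Pln, Sln, Ryr2, Itpr2, Trdn, Casq2, Jph2, Slc8a1 and Camk2d, of 14217 genes with a probe set of their own on the array. The choice was made with earlier results of these data known. All 10 genes were found, with 25 of the 31042 probe sets tested. Cells were dissociated from the ventricles of Sprague-Dawley rats aged 1 to 2 days, plated in medium with serum and kept as primary cultures. They were then infected for 24 hours, without serum, with an adenovirus for atrogin-1 together with GFP (Ad-atrogin-1) or with a control virus for GFP (Ad-GFP). Both groups thus carried a virus and GFP, and there was no group without a virus. Each group had 2 arrays (Affymetrix rat genome arrays), which the labels call biological replicates 1 and 2.

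In a heart muscle cell, calcium that enters through the surface membrane opens ryanodine receptors, and these release the much larger calcium store of the sarcoplasmic reticulum, which drives contraction. Relaxation follows when the calcium pump SERCA returns calcium to the store and the sodium-calcium exchanger carries the rest out of the cell. The store belongs to the endoplasmic reticulum, whose luminal chaperones also bind calcium. Immature cardiomyocytes rely more than adult ones on calcium that crosses the surface membrane. Atrogin-1 (gene Fbxo32) is the substrate-binding part of a muscle ubiquitin ligase.

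The signal of a probe set is its RMA value on the log2 scale, so that a difference of 1 is a 2-fold change. A probe set is called higher or lower where its adjusted p (limma, Benjamini-Hochberg over all 31042 probe sets) is under 0.05 and its change is at least 2-fold. The p-values measure only the spread between these arrays. The labels do not say which culture gave which array. A single probe set tested by exact permutation of 2 arrays against 2 could not go below p = 0.333, so that all tests here come from the fit across probe sets. The lower quartile of an array lies between 3.88 and 3.94, and the fold change of a probe set near that level is not an exact size. Signals of different probe sets do not measure RNA levels on a common scale, and brightest and dimmest refer to the signal alone. Fbxo32 itself had signals of 5.24 and 5.04 in Ad-GFP and of 13.55 and 13.47 in Ad-atrogin-1 cells, a 331-fold difference (log2 fold change 8.37 ± 0.13 (SE, n = 2 per group), adjusted p = 7.67e-05, limma). This fits the labels. Viral and cellular transcripts of the gene cannot be told apart here.

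Atp2a2, which encodes the calcium pump SERCA2 of the cardiac sarcoplasmic reticulum, was the only gene of the 10 with a called probe set. The study had named this gene among those raised on these arrays, so that its call is not independent evidence of a direction. The study also measured RNA of this gene (as Serca2) by qRT-PCR, which is not used here. In all, 1 of the 25 probe sets was called higher and 0 were called lower. Over all probe sets 0.248% were called higher and 0.0258% were called lower, and from a single call no share can be read. The 25 changes had a median of 0.25 on the log2 scale and ranged from -0.35 to 1.36, beside a median of -0.01 over all probe sets. Of the 25, 18 were positive and 7 negative, where 14626 of all 31042 probe sets were positive and 16408 negative. For 20 of the 25 the whole 95% interval lay within a 2-fold change in either direction, as it did for 29139 of all 31042.

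**Figure D1:**
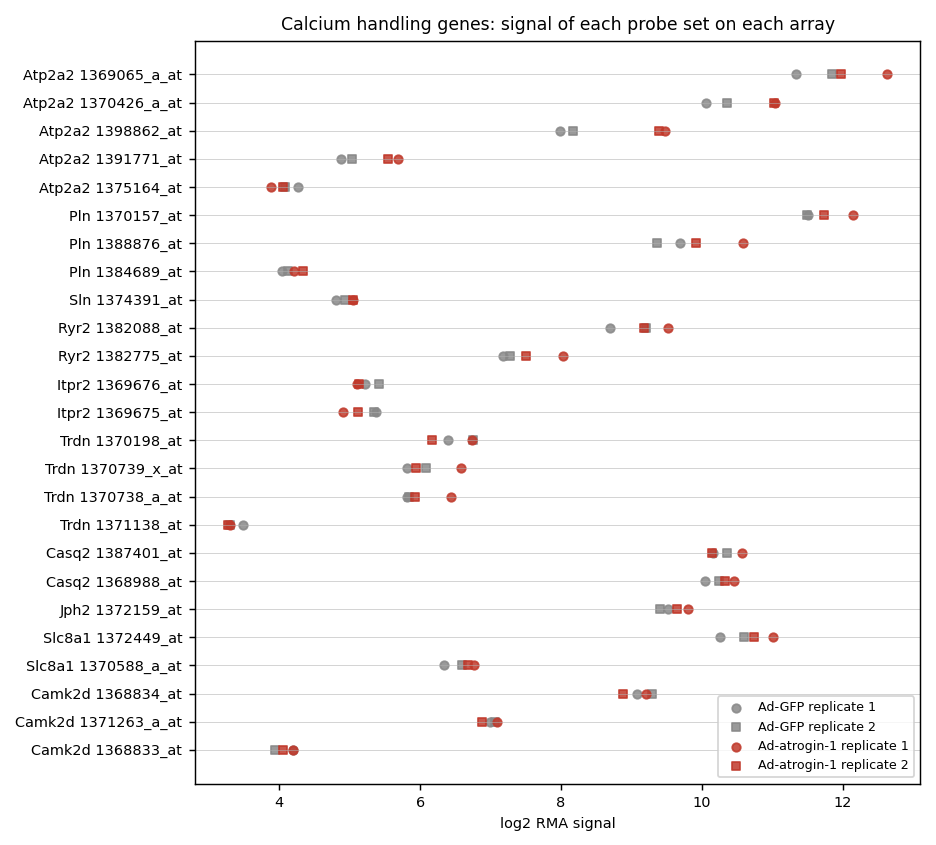
Signal of the 25 probe sets of the 10 calcium handling genes (rows) on the 4 arrays, on the log2 scale (x axis). Grey points are Ad-GFP arrays and red points are Ad-atrogin-1 arrays, with circles for replicate 1 and squares for replicate 2. In the Atp2a2 probe set 1398862_at the groups lie at 7.99 and 8.17 against 9.48 and 9.39, whereas in all 3 rows of Camk2d the groups overlap.

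The 5 probe sets of Atp2a2 are given singly, each with its own signals and change. Which transcript form each of them reads is not given in the tables used here. Probe set 1398862_at had signals of 7.99 and 8.17 in Ad-GFP and of 9.48 and 9.39 in Ad-atrogin-1 cells. The groups lay far apart relative to their spread (8.08 ± 0.13 against 9.43 ± 0.07, SD, n = 2), a 2.56-fold rise with a log2 fold change of 1.36 ± 0.13 (SE) and a 95% interval from 1.04 to 1.67. It passed the test (adjusted p = 0.0322, limma). The call did not hold with the replicate number as a block (adjusted p = 0.181, limma), a setting with 1 higher call over all probe sets. Without any 1 of the 4 arrays the change stayed between 1.27 and 1.45. Such a fit leaves 1 array in a group and cannot decide a call. In bulk RNA of a culture, fewer cells of a type and less RNA per cell cannot be told apart, and the same holds for more of either.

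In another 3 Atp2a2 probe sets the groups did not overlap and Ad-atrogin-1 was higher, but they were not called. The brightest, 1369065_a_at, had signals of 11.33 and 11.84 against 12.63 and 11.97, a log2 fold change of 0.71 ± 0.27 (SE, n = 2 per group, adjusted p = 0.423, limma). Its groups were separated by the small gap between Ad-GFP replicate 2 and Ad-atrogin-1 replicate 2. Probe set 1370426_a_at had signals of 10.05 and 10.36 against 11.04 and 11.02, with a log2 fold change of 0.83 ± 0.14 (adjusted p = 0.124, limma, n = 2 per group). Here both Ad-atrogin-1 arrays were nearly equal and clearly above both controls. The ending _a_at of these probe sets marks probes that match more than 1 transcript of the same gene.

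Both remaining probe sets of Atp2a2 were dim, and 1391771_at is the third of those that were higher. It had signals of 4.87 and 5.03 against 5.69 and 5.54, a log2 fold change of 0.66 ± 0.13 (SE, n = 2 per group, adjusted p = 0.152, limma). The dimmest, 1375164_at, went the other way, with signals of 4.27 and 4.08 against 3.88 and 4.06 and a log2 fold change of -0.20 ± 0.14 (adjusted p = 0.662, limma, n = 2 per group). Its 95% interval, from -0.54 to 0.13, contains 0 and its signals lie close to the lower quartile of the arrays. The intervals of the other 4 all lay above 0, and that of 1398862_at alone lay wholly above a 2-fold change. Whether the 5 probe sets differ from each other in their change was not tested. Where a gene is represented by its brightest probe set, or by the mean of its probe sets, Atp2a2 is not called.

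**Figure D2:**
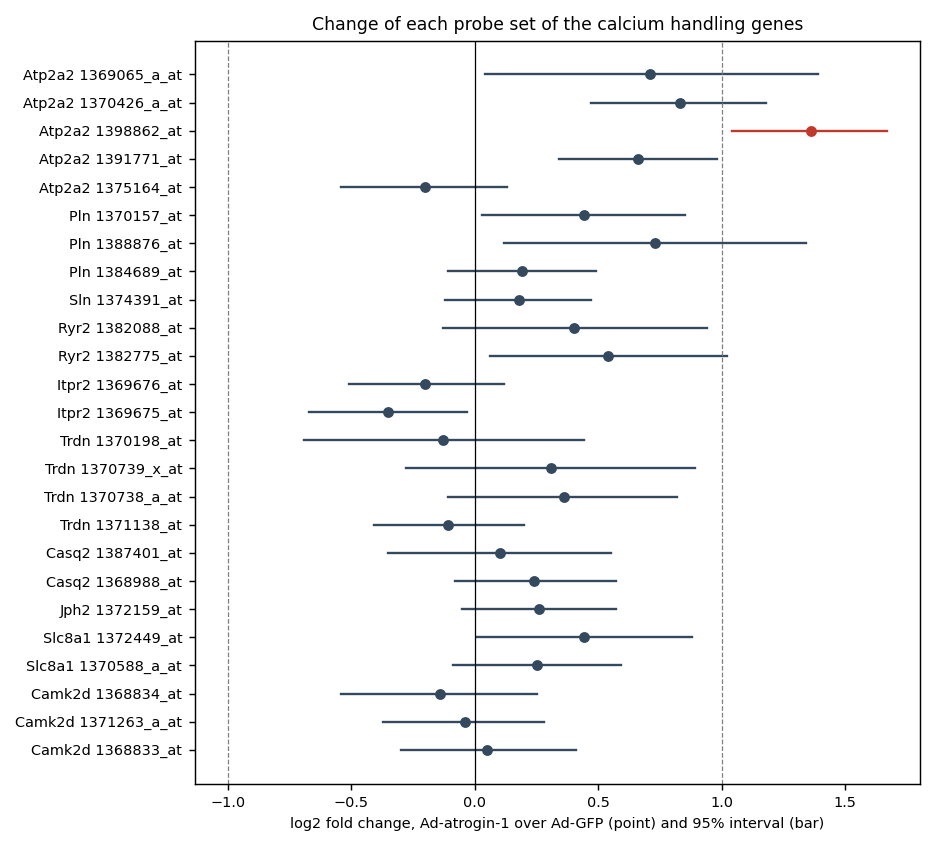
Log2 fold change of Ad-atrogin-1 over Ad-GFP (x axis; points) with its 95% interval from limma (bars) for the 25 probe sets (rows); dashed lines mark a 2-fold change in either direction and red marks the called probe set. Only the interval of Atp2a2 1398862_at, from 1.04 to 1.67, lies wholly beyond a dashed line, and those of 20 probe sets lie between the dashed lines. Over all 31042 probe sets, 29139 intervals lie within a 2-fold change.

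Calcium-binding chaperones of the endoplasmic reticulum, a list of 13 genes described further on, had 6 called genes. Promoters of several such chaperone genes are known for the endoplasmic reticulum stress response element (ERSE), which the factor NF-Y and the stress sensor ATF6 bind. The promoter of Atp2a2 is shown with theirs because Atp2a2 is the calcium handling gene with a call. RefSeq promoters (GRCr8, 250 bases before to 50 after a gene's start) were at hand for 9 of the 10 genes, with none used for Sln. ERSE was searched on both strands as CCAAT, then 9 bases of any kind, then CCACG. It stood in 22 of 33469 promoters (0.0657%), in 4 of 10 promoters of the chaperone list and in 0 of the 9. The ERSE-II form (ATTGG, 1 base of any kind, CCACG) stood in 17 promoters (0.0508%), in that of Nucb1 on the chaperone list and in 0 of the 9.

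The Atp2a2 promoter held ERSE except for its last base. A search without that base was chosen after this sequence was read, and any ERSE match is also a match to it. It stood in 105 promoters (0.314%), in 5 of 10 of the chaperone list and, of the 9, in that of Atp2a2 alone. Promoters were at hand for 10 of the 13 genes of the chaperone list. Canx has a match and was not called, with log2 fold changes of 0.85, 0.96 and 0.90 and groups that did not overlap. The called Pdia6 and Nucb2 are not among the matches. Whether their promoters were among the 10 searched is not given here. The matches are printed 5′ to 3′ on the genome strand that matched, with the letters that match the element in capitals.
Atp2a2, chr12:39733440-39733458, 79 to 61 bases before the start, plus strand: CCAATgagcggcgtCCACa
Hspa5, chr3:38452973-38452991, 43 to 25 bases before the start, plus strand: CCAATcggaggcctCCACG
Calr, chr19:40213135-40213153, minus strand: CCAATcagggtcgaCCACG
Canx, chr10:35158069-35158087, minus strand: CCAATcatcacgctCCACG
Hsp90b1, chr7:23012451-23012469, minus strand: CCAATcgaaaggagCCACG
Hsp90b1, chr7:23012347-23012365, plus strand: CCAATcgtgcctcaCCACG
Pdia4, chr4:78153274-78153292, plus strand: CCAATcaccggctgCCACt

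Counted from 1 at the 5′ end of the element, the Atp2a2 sequence differs by G19A and that of Pdia4 by G19T. A match is a description of letters, and nothing on the binding of a factor was measured. For context, the 250 bases before the start of Atp2a2 (plus strand, chr12:39733269-39733518, 80% G and C) are printed with the matching letters in capitals.
Atp2a2: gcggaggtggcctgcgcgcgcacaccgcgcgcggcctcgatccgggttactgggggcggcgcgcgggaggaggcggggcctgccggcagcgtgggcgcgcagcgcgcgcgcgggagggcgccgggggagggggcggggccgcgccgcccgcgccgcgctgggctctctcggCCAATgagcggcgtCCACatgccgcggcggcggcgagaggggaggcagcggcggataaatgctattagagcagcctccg

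The partners of the pump in calcium uptake are phospholamban (Pln) and sarcolipin (Sln), small membrane proteins that bind SERCA and lower its affinity for calcium. Pln 1370157_at had signals of 11.50 and 11.49 in Ad-GFP and of 12.14 and 11.73 in Ad-atrogin-1 cells, a log2 fold change of 0.44 ± 0.17 (SE, n = 2 per group, adjusted p = 0.414, limma). Pln 1388876_at had signals of 9.68 and 9.36 against 10.58 and 9.92, a log2 fold change of 0.73 ± 0.24 (adjusted p = 0.362, limma, n = 2 per group). In both, the Ad-atrogin-1 arrays were above the controls, yet they differed from each other by about as much as from the controls. The dim Pln 1384689_at changed by 0.19, from 4.04 and 4.12 to 4.21 and 4.34. Sarcolipin, which is best known from atria and skeletal muscle, had the low signals of 4.81 and 4.94 against 5.05 and 5.05, a log2 fold change of 0.18 with a 95% interval from -0.12 to 0.47. In the uptake genes as a group, 8 of 9 probe sets were higher on both Ad-atrogin-1 arrays, where 18.3% of all probe sets were higher without overlap. At an unadjusted p under 0.05 (limma), 6 of the 9 were higher, where 5.6% of all probe sets were, and 1 was called. Atp2a2 alone gave 4 of the 8 and 4 of the 6.

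The release channels had changes of both signs, none of them called. For Ryr2, the cardiac ryanodine receptor, 1382775_at had signals of 7.18 and 7.27 in Ad-GFP and of 8.02 and 7.50 in Ad-atrogin-1 cells, a log2 fold change of 0.54 ± 0.19 (SE, n = 2 per group, adjusted p = 0.394, limma). Its other probe set, 1382088_at, had signals of 8.69 and 9.20 against 9.52 and 9.17, so that the groups overlapped (log2 fold change 0.40, 95% interval from -0.13 to 0.94). Itpr2, the inositol trisphosphate receptor that is prominent in cardiomyocytes, had the lowest change of the 10 genes. Its probe set 1369675_at had signals of 5.38 and 5.34 against 4.90 and 5.12, a log2 fold change of -0.35 ± 0.13 (adjusted p = 0.411, limma, n = 2 per group). Its probe set 1369676_at had signals of 5.22 and 5.42 against 5.11 and 5.13, a log2 fold change of -0.20. Both Itpr2 probe sets thus lay lower in Ad-atrogin-1 cells without overlap, at dim signals and without a call.

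Calsequestrin 2 (Casq2) binds calcium inside the store, triadin (Trdn) ties it to the ryanodine receptor, and junctophilin 2 (Jph2) holds the store's membrane against the surface membrane. None of their 7 probe sets had an unadjusted p under 0.05 (limma). All 7 intervals lay within a 2-fold change, as did 29139 of all 31042. Casq2 1368988_at had signals of 10.04 and 10.24 in Ad-GFP and of 10.45 and 10.32 in Ad-atrogin-1 cells (log2 fold change 0.24, 95% interval from -0.08 to 0.57). Casq2 1387401_at had signals of 10.16 and 10.35 against 10.57 and 10.14, with groups that overlapped (log2 fold change 0.10). Jph2 had signals of 9.52 and 9.41 against 9.80 and 9.65, a log2 fold change of 0.26 ± 0.12 (SE, n = 2 per group) and a 95% interval from -0.05 to 0.57.

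The 4 triadin probe sets had changes of both signs. Trdn 1370738_a_at had signals of 5.82 and 5.84 against 6.44 and 5.93 (log2 fold change 0.36), and Trdn 1370739_x_at had 5.82 and 6.08 against 6.58 and 5.94 (0.31). The ending _x_at marks probes some of which may also match other sequences. Trdn 1370198_at had signals of 6.40 and 6.75 against 6.74 and 6.17 (log2 fold change -0.13), and the dim 1371138_at had 3.48 and 3.30 against 3.30 and 3.27 (-0.11). In 3 of these 4 probe sets the Ad-atrogin-1 replicates differed from each other by more than the group means did.

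Slc8a1 encodes the sodium-calcium exchanger of the surface membrane, and Camk2d the cardiac form of the calmodulin-dependent kinase that phosphorylates the ryanodine receptor and phospholamban. Slc8a1 1372449_at had signals of 10.25 and 10.60 in Ad-GFP and of 11.01 and 10.73 in Ad-atrogin-1 cells, a log2 fold change of 0.44 ± 0.17 (SE, n = 2 per group, adjusted p = 0.437, limma). Slc8a1 1370588_a_at had 6.34 and 6.60 against 6.76 and 6.68, a log2 fold change of 0.25 with a 95% interval from -0.09 to 0.59. Both were higher on both Ad-atrogin-1 arrays, and neither was called. For Camk2d the groups overlapped in all 3 probe sets. Camk2d 1368834_at had 9.08 and 9.29 against 9.20 and 8.88 (log2 fold change -0.14), 1371263_a_at had 6.99 and 7.06 against 7.09 and 6.88 (-0.04), and the dim 1368833_at had 4.20 and 3.94 against 4.19 and 4.06 (0.05). Their 95% intervals together run from -0.54 to 0.41, within a 2-fold change of these signals in either direction. The same held for 29139 of all 31042 probe sets.

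At an unadjusted p under 0.05, 8 of the 25 probe sets were higher and 1 was lower in Ad-atrogin-1 cells, where 5.6% of all probe sets were higher and 5.61% lower at that level. The groups did not overlap in 14 probe sets that were higher and in 4 that were lower, where 18.3% of all probe sets were higher and 22.1% lower without overlap. Of these, Atp2a2 gave 4 of the 8 and 4 of the 14. Without Atp2a2, the other 20 probe sets had 4 higher and 1 lower at an unadjusted p under 0.05 (limma), and a median log2 fold change of 0.22. They had 0 calls, where 0.248% of all probe sets were called higher and 0.0258% lower.

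The arrays of a group differed from each other in the same direction in many of these probe sets. Ad-GFP replicate 2 was above replicate 1 in 18 of 25 (72%, against 48.7% of all probe sets), and Ad-atrogin-1 replicate 1 was above replicate 2 in 20 of 25 (80%, against 46.9%). The markers of cardiomyocytes showed the like: replicate 2 was higher in 75% of their 16 probe sets in Ad-GFP, and replicate 1 in 87.5% in Ad-atrogin-1 cells. These markers had mean signals of 10.43 and 10.60 in Ad-GFP and of 10.93 and 10.59 in Ad-atrogin-1 cells and a median log2 fold change of 0.33. They had 0 calls, where 0.248% of all probe sets were called higher and 0.0258% lower. Without overlap of the groups, 7 of the 16 were higher and 1 was lower, where 18.3% of all probe sets were higher and 22.1% lower. Of the 16, 3 were higher at an unadjusted p under 0.05, where 5.6% of all probe sets were, with probe sets of the myosin heavy chains Myh6 (1.05) and Myh7 (0.65) and of titin (Ttn, 0.41). Cardiac troponin T (Tnnt2 1367592_at) had signals of 12.99 and 13.05 against 13.01 and 12.81, which fits the label of the cells. The dim Tnnt2 1390061_at had 4.09 and 3.69 against 4.09 and 4.34. Such signals do not show that other cells were absent. Of the 13 genes of this list 12 had a probe set, and Actc1 is not listed with a probe set of its own in the table used here.

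The means over the arrays are given for Atp2a2, the gene with a call, and for the other 9 genes. The mean signal over the 20 probe sets without Atp2a2 was 7.23 and 7.33 in Ad-GFP and 7.58 and 7.33 in Ad-atrogin-1 cells, so that Ad-GFP replicate 2 and Ad-atrogin-1 replicate 2 were equal. The mean over the 5 Atp2a2 probe sets was 7.70 and 7.89 against 8.54 and 8.39, so that both Ad-atrogin-1 arrays were above both controls. Taken singly, Pln (8.41 and 8.33 against 8.98 and 8.66), Sln, Ryr2, Jph2 and Slc8a1 also had both Ad-atrogin-1 arrays above both controls. Itpr2, Trdn, Casq2 and Camk2d did not. Within a group, however, the Atp2a2 probe sets differed between arrays in the same direction as the others: 4 of 5 (80%) were higher on Ad-GFP replicate 2 and 4 of 5 (80%) on Ad-atrogin-1 replicate 1, against 70% and 80% of the other 20. Whether Atp2a2 and the other 9 genes differ in their pattern over the arrays was not tested. The part of the spread between arrays in the values of the other 9 genes was not tested.

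**Figure D3:**
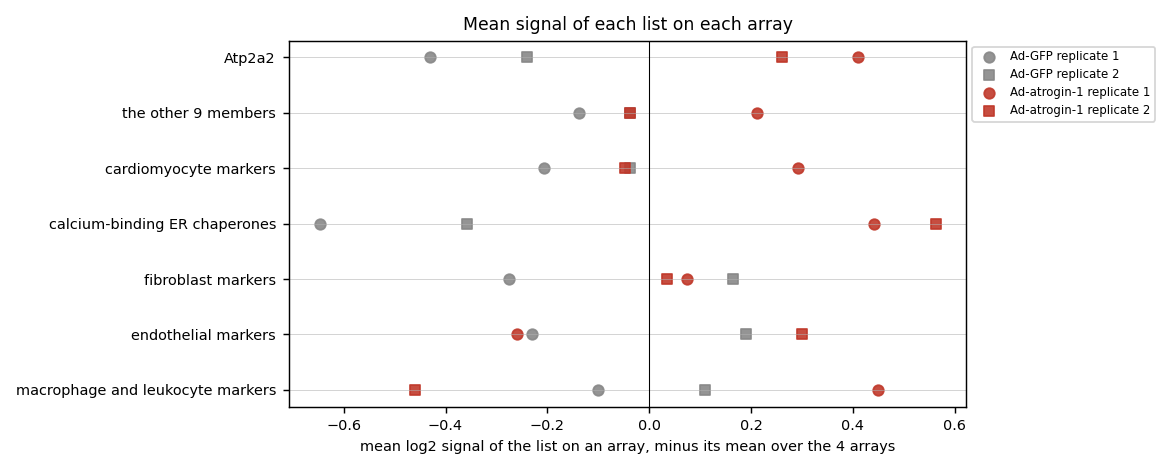
Mean log2 signal of each gene list on each array minus its mean over the 4 arrays (x axis), for Atp2a2 alone, the other 9 genes, calcium-binding chaperones and markers of cell types (rows); grey is Ad-GFP and red Ad-atrogin-1, with circles for replicate 1 and squares for replicate 2. The red and grey squares coincide for the other 9 genes (7.33 in both groups) and nearly so for cardiomyocyte markers (10.59 and 10.60), and lie apart for Atp2a2 (8.39 and 7.89).

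Markers of other cells that such a culture can hold had 0 calls in every list. Over all probe sets only 0.248% were called higher and 0.0258% lower, so that 0 calls in such short lists say little. The 8 genes of the fibroblast list had mean signals of 8.77 and 9.21 in Ad-GFP and of 9.12 and 9.08 in Ad-atrogin-1 cells, with a median log2 fold change of 0.14. Endothelial markers, at 5.26 and 5.68 against 5.23 and 5.79, and smooth muscle markers, at 7.70 and 7.70 against 7.62 and 7.70, had medians of 0.00 and -0.01. Macrophage and leukocyte markers were dim and differed most within a group, at 4.54 and 4.75 against 5.09 and 4.18. The medians were 0.12 for ventricular and -0.02 for atrial markers. The 10 atrial probe sets went both ways, from -0.58 for the myosin light chain Myl4 to 1.03 for Myl7 (1371315_at), which had signals of 8.29 and 7.99 against 9.26 and 9.07 and was not called (adjusted p = 0.0908, limma, n = 2 per group). Their part in the values of the calcium handling genes was not tested.

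The wider calcium handling machinery was described by 8 lists of 72 genes, of which 62 had probe sets of their own, 105 in all. None of the 105 was called, but over all probe sets only 0.248% were called higher and 0.0258% lower. Of them, 2 were higher and 9 lower at an unadjusted p under 0.05 (limma), where 5.6% of all probe sets were higher and 5.61% lower. The median log2 fold change was -0.05. The other SERCA pumps and regulators of the pump (10 probe sets, 7 genes) had a median of -0.06, and the brightest, that of the kinase anchor Akap7, had signals of 7.16 and 6.97 against 6.85 and 6.46. The other pump genes had values near 0, with -0.02 for Atp2a1, the skeletal muscle pump, and 0.01 and -0.25 for Atp2a3. Channel partners (21 probe sets, 11 genes) had a median of -0.06, and Fkbp1a, a ryanodine receptor binding protein and the brightest of them, had 11.08 and 11.25 against 10.89 and 10.98.

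In the lists of structure, exchange and signalling the medians also lay close to 0. The luminal buffers Casq1, Hrc and Srl changed by 0.04, -0.02 and 0.14, and on each of them Ad-atrogin-1 replicate 1 was above replicate 2. Genes of the dyad and T-tubule had a median of -0.03, and caveolin 3 (Cav3), the brightest, changed by 0.06. Caveolin 3 shapes the caveolae and T-tubules of muscle, and Atp1b1, named next, belongs to the pump that sets the sodium gradient for the exchanger. Genes of calcium entry and extrusion at the surface had a median of -0.05 over 17 probe sets, with -0.05 for the sodium pump subunit Atp1b1. In none of the 17 were the groups without overlap, where 18.3% of all probe sets were higher and 22.1% lower without overlap. Calmodulin, kinases and phosphatases had a median of -0.04 over 25 probe sets, with -0.29 for the phosphatase subunit Ppp1cb. Mitochondrial calcium transport had a median of 0.01, with 0.13 for the outer membrane channel Vdac1.

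The few probe sets of these lists at an unadjusted p under 0.05 are named after their values were seen. The 2 that were higher belong to the kinase Camk2a (0.52 and 0.45), whose signals lay between 4.01 and 4.68. Those that were lower belong to Sypl2 (-0.43 and -0.35), to the mitochondrial uniporter Mcu (-0.48 and -0.52), to Akap7 (-0.73) and, for the other 4, to store-operated entry. None of these passed the adjustment over all probe sets.

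Store-operated entry is the path by which an emptied store draws calcium in from outside, with STIM proteins as sensors in the store's membrane and ORAI proteins as channels at the surface. Of its 10 probe sets, 9 were lower in Ad-atrogin-1 cells without overlap of the groups, as were 22.1% of all probe sets, and the median log2 fold change was -0.32. The brightest, of the channel Orai1, had signals of 8.12 and 7.96 against 7.75 and 7.87, a log2 fold change of -0.23 ± 0.13 (SE, n = 2 per group, adjusted p = 0.588, limma). The sensor Stim1 had values of -0.49, -0.69 and -0.20 in its 3 probe sets, and Stim2 had -0.41. The lowest value was that of the cation channel Trpc6, with signals of 6.14 and 5.64 against 4.50 and 4.85 and a log2 fold change of -1.22 ± 0.21 (adjusted p = 0.125, limma, n = 2 per group). None of the 10 was called, where 0.248% of all probe sets were called higher and 0.0258% lower.

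**Figure D4:**
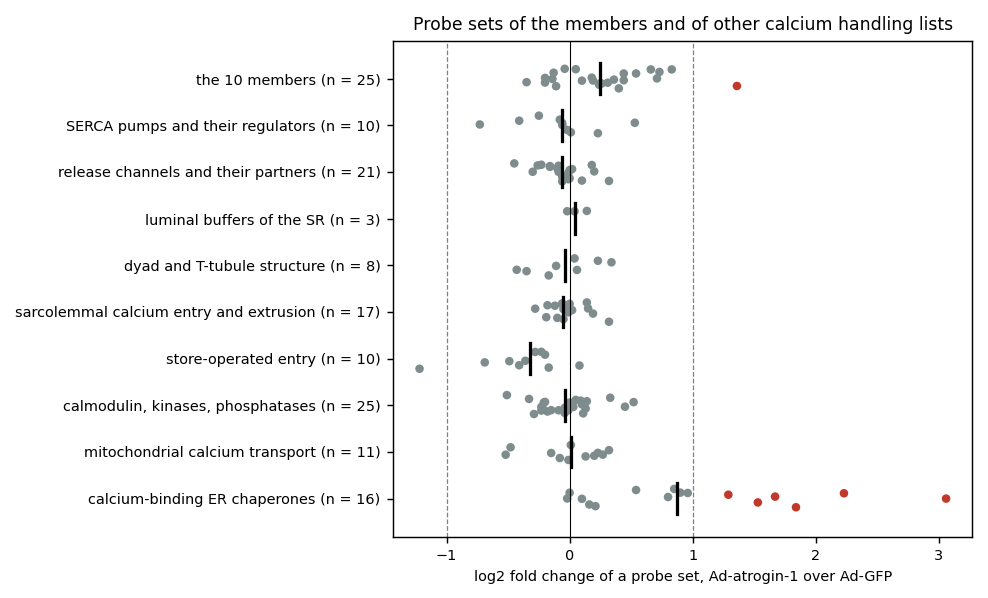
Log2 fold change of Ad-atrogin-1 over Ad-GFP (x axis) for each probe set (points) of the 10 genes and of the other lists of calcium handling (rows, n is the number of probe sets; vertical scatter within a row has no meaning); black bars are medians, red points are called and dashed lines mark a 2-fold change. The medians are 0.25 for the 10 genes, -0.32 for store-operated entry and 0.88 for the calcium-binding chaperones, and lie between -0.06 and 0.04 for the other 7 lists.

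The list with calls, whose promoters were compared with that of Atp2a2, was that of calcium-binding chaperones and reticulocalbins of the endoplasmic reticulum. Of its 16 probe sets (13 genes), 6 were called higher, against 0.248% of all probe sets, and the median log2 fold change was 0.88. Calreticulin (Calr), the main calcium buffer of the endoplasmic reticulum, had signals of 10.58 and 10.96 against 12.22 and 12.39, a log2 fold change of 1.53 ± 0.17 (SE, n = 2 per group, adjusted p = 0.0485, limma). The chaperones Hspa5 (1.67) and Hsp90b1 (2.23), the disulfide isomerases Pdia4 (3.06) and Pdia6 (1.84), and nucleobindin 2 (Nucb2, 1.29) were the others called. Their adjusted p ranged from 0.00929 for Pdia4 to 0.0373 for Nucb2 (limma). Not all of the list rose, and the reticulocalbin Rcn3 had 8.09 and 8.21 against 8.13 and 8.13. Some genes of this list are among those that the study named from these arrays, so that its count is not independent evidence of a direction.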

How the data were processed

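Gene expression was measured on 4 Affymetrix rat genome arrays, 2 of Ad-GFP and 2 of Ad-atrogin-1 infected cardiomyocytes. The deposited log2 signals are those that the authors computed with RMA, run in GeneSpring GX, for each probe set. No further normalization and no filter on low signal was applied. The medians of the arrays range from 5.51 to 5.52. After 57 controls were removed, 31042 probe sets remained. The platform table pairs 20826 of these with 1 gene, 436 with several and 9780 with none. A gene was named only from a probe set with 1 gene, and no probe set lists a calcium handling gene among several.

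The comparison used lmFit and eBayes of limma 3.58.1 (R 4.3.3) with two-sided p and without a block (2 residual and 3.65 prior degrees of freedom, prior SD 0.139), with Benjamini-Hochberg adjustment over all probe sets. The methods give these thresholds but do not name a test that can be repeated, so an equal-variance test of 2 means was run as an alternative and is called the methods' t-test. The fit was also run on simulated arrays, with independent probe sets drawn from its own variance prior. Such a run does not test differences between arrays that probe sets share, and no result here rests on it. The number of arrays limits the precision. By the methods, RNA came from a larger number of independent experiments than a group has arrays, and the experiment behind each array is not given in the sources used here.

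The 10 genes and all lists were chosen with earlier results of these data known. Every probe set of the 10 genes was named, and from each other list the genes with a called probe set, or the gene with the brightest probe set where none was called; from marker lists only called genes were to be named, and Fbxo32 served as the check of the labels. Genes named outside this rule were chosen after their values were seen. Alternatives were 2 other scalings, the upper 60% of probe sets by signal, 2 other variance priors, the methods' t-test, no fold threshold, the replicate number as a block, each array left out, and 2 ways to give a gene 1 value. Figures were drawn with matplotlib 3.10.9.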

Additional observations from a re-analysis of the deposited data

How the results depend on the processing

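The call of Atp2a2 1398862_at (log2 fold change 1.36) was kept with median-centred arrays, another quantile normalization, only the upper 60% of probe sets, an intensity trend, a robust prior and no fold threshold (adjusted p from 0.0249 to 0.0323, limma). It was lost in the methods' t-test (adjusted p = 0.500), with the replicate block (1.36, adjusted p = 0.181, limma) and without any 1 array, and 0 of the calcium handling genes were called in these or with 1 value per gene (brightest probe set or mean). Over all probe sets, 77 were called higher and 8 lower. With median centring 105 were called higher and 14 lower, after quantile normalization 95 and 14, and in the upper 60% 100 and 13. An intensity trend gave 85 higher and 10 lower. The methods' t-test called 0 higher and 0 lower (2598 had an unadjusted p under 0.05), and without any 1 array limma called 0 and 0 (2449 to 2852 had an unadjusted p under 0.05); fewer arrays entered the latter fits. The replicate block called 1 higher and 0 lower. The groups share replicate numbers 1 and 2 and, in the same order, sample name numbers 3 and 4, and the labels do not say whether a number marks a shared culture. The replicate differences in the 2 groups correlated at 0.0432 over 31042 probe sets. Apart from arrays left out, only the 2 other scalings could move the log2 fold change of a probe set. None of 196 values of the 25 probe sets changed sign with all 4 arrays, which was fixed in advance outside those scalings. With 1 array left out, 8 of 100 did, in 6 probe sets that were not called: Camk2d 1368833_at (-0.08 to 0.18), 1368834_at (-0.30 to 0.01) and 1371263_a_at (-0.15 to 0.07), Casq2 1387401_at (-0.12 to 0.32), and Trdn 1370198_at (-0.41 to 0.16) and 1370739_x_at (-0.01 to 0.63). The cause was not tested.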
